A study of Mus musculus with 19 samples.

Results

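The voltage-gated calcium and sodium channel genes are the protein-coding genes whose symbols begin with Cacna, Cacnb, Cacng, or Scn and a digit. The rule used only names, and it found 39 of the 22901 genes named in the authors' deposited tables. They comprise 10 pore-forming calcium channel genes, 4 alpha2delta genes, 4 calcium channel beta genes, 8 Cacng genes, 9 pore-forming sodium channel genes and 4 sodium channel beta genes. All 39 were matched by gene ID to the counts of 19 striatal RNA-seq libraries, 1 per mouse. Of these, 38 passed the filter on low counts, and Cacna1f, a retinal L-type channel gene with 1 to 13 counts per library, did not.

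All 19 mice were males aged 4 months of the D2RCre_floxCas9-EGFP genotype, in which Cre is driven by the D2 dopamine receptor gene and Cas9 linked to EGFP is made in cells with Cre. The control mice carried both alleles too. AAV5 was delivered to the medial prefrontal cortex (mPFC), with D2R-sgRNA in the mice labelled PFC_D2R-KO (called knockout here) and syn-mCherry in the controls. After 3 weeks, saline was injected on 5 days and locomotion was followed for 30 min. The challenge came on day 9 and was either saline or 3 mg/kg amphetamine. There were 5 control mice and 5 knockout mice challenged with saline, and 5 control mice and 4 knockout mice challenged with amphetamine. Tissue was taken 90 min after the last amphetamine injection, and no separate time is given for the saline mice. The edit was aimed at prefrontal cells, so no striatal gene level checks it.

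Voltage-gated calcium and sodium channels are built around 1 large pore-forming subunit that opens on depolarisation. In calcium channels, beta subunits and alpha2delta subunits bring the pore to the membrane and tune its gating, and L-type, P/Q-type, N-type, R-type and T-type channels differ in the pore gene. Sodium channel beta subunits are small cell-adhesion-like proteins that set gating and surface level. Most Cacng genes of the brain encode auxiliary proteins of AMPA glutamate receptors, although the family was named after a muscle calcium channel subunit. In striatal projection neurons, the GABA neurons that form most of the striatum, sodium channels carry the action potential and L-type channels shape the response near threshold.

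Library totals ran from 57003408 to 85536346 counts, and no library was a copy of another (chi-square over degrees of freedom of at least 11.2 for every pair). All 12 striatal projection neuron markers were present in every library. Their summed level, as CPM (counts scaled to library size, here by TMM), was 4378, 4274, 4376, 3094 and 3412 in saline control libraries 1 to 5 and 5573, 4686, 4859, 5655 and 6016 in amphetamine control libraries 1 to 5. It was 3871, 4070, 5080, 2493 and 4291 in saline knockout libraries 1 to 5 and 4132, 2680, 1672 and 4576 in amphetamine knockout libraries 1 to 4. Amphetamine knockout libraries 2 and 3 and saline knockout library 4 were thus the lowest. Amphetamine knockout library 2 also held choroid plexus markers at a sum of 683 CPM, against 27.2 to 70.8 in the other libraries, and amphetamine knockout library 3 held the highest sum of cortical projection neuron markers, 1490 CPM. In a bulk sample fewer cells of a type and less RNA per cell cannot be told apart. Saline knockout library 3 stood apart by transcript length, as described with the channel genes it touches.

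Levels between genes were compared in the deposited FPKM, which divides by gene length, as mean ± SD over all 19 libraries. Of the sodium channel beta genes, Scn4b stood at 111 ± 45.4 FPKM, Scn2b at 83.5 ± 9.19 and Scn3b at 39.1 ± 3.05. Scn4b, whose product can block the open channel and give a resurgent current, had the widest range of these, from 32.5 to 204 FPKM. Among pore-forming sodium channel genes Scn2a led with 37.5 ± 5.28 FPKM, above Scn8a in all 19 libraries. Scn8a (19.9) and Scn1a (19.1) were next and changed places between libraries, Scn8a being higher in 9 of 19. These 3 and Scn3a (8.98), a gene best known from the developing brain, are the sodium channels of central neurons. Genes known from sensory neurons (Scn9a 1.49 FPKM, Scn10a 0.134, Scn11a 0.117) and the sodium-sensing Scn7a (0.572) were far lower.

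The R-type gene Cacna1e led the pore-forming calcium channel genes with 18.4 ± 3.23 FPKM, above the next gene in all 19 libraries. The P/Q-type gene Cacna1a (10.9) and the N-type gene Cacna1b (10.8) were level with each other, Cacna1a being higher in 12 of 19 libraries. T-type genes followed, with Cacna1i at 9.04, Cacna1h at 8.85 and Cacna1g at 6.33 FPKM, the last above the L-type gene Cacna1c in 9 of 19 libraries. Of the L-type genes Cacna1c stood at 6.19 and Cacna1d at 4.8, with Cacna1c higher in 19 of 19 libraries, while the muscle gene Cacna1s stood at 0.258. P/Q-type, N-type and R-type genes together held 53.1% ± 1.74 of the summed pore-forming calcium FPKM, the 3 T-type genes 32.1% ± 1.94 and Cacna1c with Cacna1d 14.5% ± 0.976 (SD over 19 libraries).

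By mean FPKM, 3 alpha2delta genes (Cacna2d1, Cacna2d2 and Cacna2d3) and 3 beta genes (Cacnb1, Cacnb3 and Cacnb4) stood above every pore-forming calcium gene. Cacna2d3 (42.4 ± 10.3) led the alpha2delta genes, ahead of Cacna2d2 (24.6) and Cacna2d1 (22), the pair that binds gabapentin, and Cacna2d4, known from the retina, stood at 0.494. Among beta genes Cacnb3 stood at 49.8 ± 10.9, Cacnb1 at 34, Cacnb4 at 31.2 and Cacnb2 at 12.6. Of the AMPA receptor auxiliary genes, Cacng7 was highest at 68.7 ± 9.58 FPKM, followed by Cacng8 (35), Cacng4 (25.4), Cacng3 (22.3), Cacng2 (16.7) and Cacng5 (8.97). Cacng6 (0.478) and Cacng1 (0.346), a muscle calcium channel subunit gene, were low and were not separated, Cacng6 being higher in 12 of 19 libraries.

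**Figure D1:**
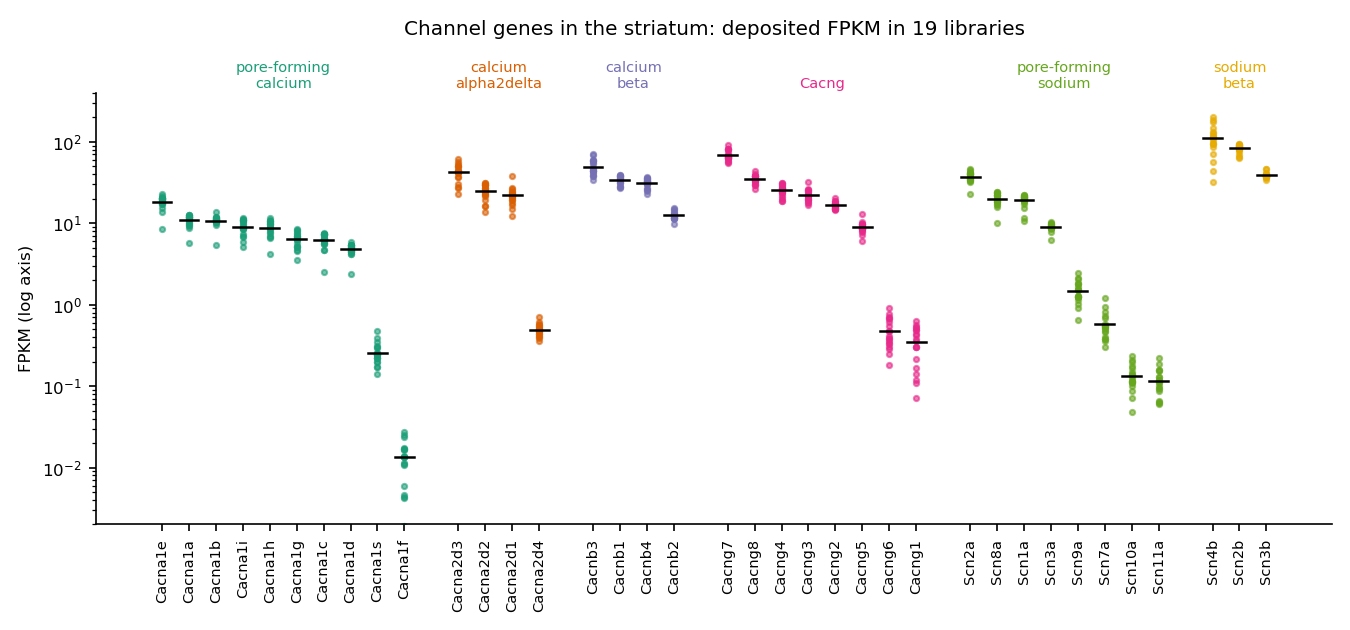
Deposited FPKM (log axis) of 37 channel genes in 19 libraries, ordered by class and by mean; each point is a library and each bar the mean. Scn4b has a mean of 111, and Cacna1f the lowest, 0.0133.

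Several members sit side by side in the genome (GRCm39, coordinates of the authors' tables). Scn3a, Scn2a, Scn1a, Scn9a and Scn7a lie in a row on chromosome 2 from 65287462 to 66615258, and Scn10a and Scn11a on chromosome 9 from 119437522 to 119654522. Cacng7, Cacng8 and Cacng6 lie on chromosome 7 from 3381471 to 3484183, and Cacng1, Cacng4 and Cacng5 on chromosome 11 from 107594044 to 107805881. Scn2b (chromosome 9, 45029080 to 45041368) and Scn4b (chromosome 9, 45049693 to 45065450) are neighbours. Of the 39 members, 14 overlap another listed gene, among them Cacna1c with Dcp1b and Cacna1d with Dcp1a and Chdh. The overlap is of whole gene spans, not of exons. Without the strand setting of the counting, whether such pairs shared any reads is not known.

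The neighbours Scn2b and Scn4b had different ranges. Scn2b ranged from 293 to 437 CPM over the 19 libraries, and Scn4b from 161 to 1018. RefSeq promoter windows (GRCm38.p6, 250 bases before to 50 after the start) are shown for this pair, and for Cacna2d3, which was low in the same 2 amphetamine knockout libraries as Scn4b. They are chr9:45138374-45138673 (Scn4b, + strand), chr9:45117626-45117925 (Scn2b, + strand) and chr14:29721815-29722114 (Cacna2d3, − strand), printed 5′ to 3′ with matches to 4 searched motifs in capitals.
Scn4b: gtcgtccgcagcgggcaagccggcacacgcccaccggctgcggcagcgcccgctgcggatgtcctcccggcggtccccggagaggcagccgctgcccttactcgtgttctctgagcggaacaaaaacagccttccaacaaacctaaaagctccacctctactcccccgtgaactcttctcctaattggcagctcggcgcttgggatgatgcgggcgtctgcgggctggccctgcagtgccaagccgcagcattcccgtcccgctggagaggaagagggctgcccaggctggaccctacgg
Scn2b: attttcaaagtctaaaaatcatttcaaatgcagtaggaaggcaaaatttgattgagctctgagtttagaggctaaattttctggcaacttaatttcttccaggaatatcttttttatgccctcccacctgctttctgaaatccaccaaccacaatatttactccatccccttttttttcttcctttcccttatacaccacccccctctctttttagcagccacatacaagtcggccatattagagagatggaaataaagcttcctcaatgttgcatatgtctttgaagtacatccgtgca
Cacna2d3: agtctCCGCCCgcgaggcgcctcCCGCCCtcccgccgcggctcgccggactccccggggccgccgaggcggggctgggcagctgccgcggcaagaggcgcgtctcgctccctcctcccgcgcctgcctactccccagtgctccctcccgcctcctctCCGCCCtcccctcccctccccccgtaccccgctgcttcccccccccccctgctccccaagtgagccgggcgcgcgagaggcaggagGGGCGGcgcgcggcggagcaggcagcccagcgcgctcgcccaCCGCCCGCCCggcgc
Scn4b and Cacna2d3 have GC-rich windows (66.3% and 81.3% G or C), and Scn2b an AT-rich one (38.3% G or C). Motifs were read on both strands. The Cacna2d3 window holds 6 matches to the GC box GGGCGG, and the Scn4b and Scn2b windows hold no match to any of the motifs. Windows were found for 29 of 39 members, 40 windows in all. GC boxes were in 40% of these against 35.7% of all 32851 windows. The CRE half-site TGACG was in 15% against 20.8%, the AP-1 site TGANTCA in 2.5% against 7.81%, and the TATA box TATAAA in 5% against 13.6%. No motif holds another. A match is a description of letters, not a site.

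The long pore-forming genes were low in 1 library. In saline knockout library 3, Cacna1c stood at 33.7 CPM against a median of 83.8 in the other 18 libraries (40.3%), Cacna1e at 127.8 against 289.9 (44.1%) and Cacna1h at 34.8 against 76.8 (45.3%). Cacng2 stood at 113 CPM there against 90.4 (124.8%). This library was the lowest of 19 for 18 of 38 members, and for 8 of the 9 pore-forming calcium genes tested, while 19.4% of all genes were lowest there. Over all genes the median log2 deviation of this library from the median of the other 18 went from 0.41 for genes of up to 1000 bases of exon to −0.92 for genes over 12000 bases. The exon length here is the one implied by the counts and the FPKM. The median of genes over 8000 bases minus that of genes up to 2000 was −1.05 in this library and between −0.11 and 0.13 in the other 18. Among genes of 8000 to 12000 bases the 13 members had a median deviation of −0.86, against −0.66 for the 747 genes of that length. In comparisons with the saline knockout group, values that moved by over 1.5 times when this library was left out are given with and without it.

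**Figure D2:**
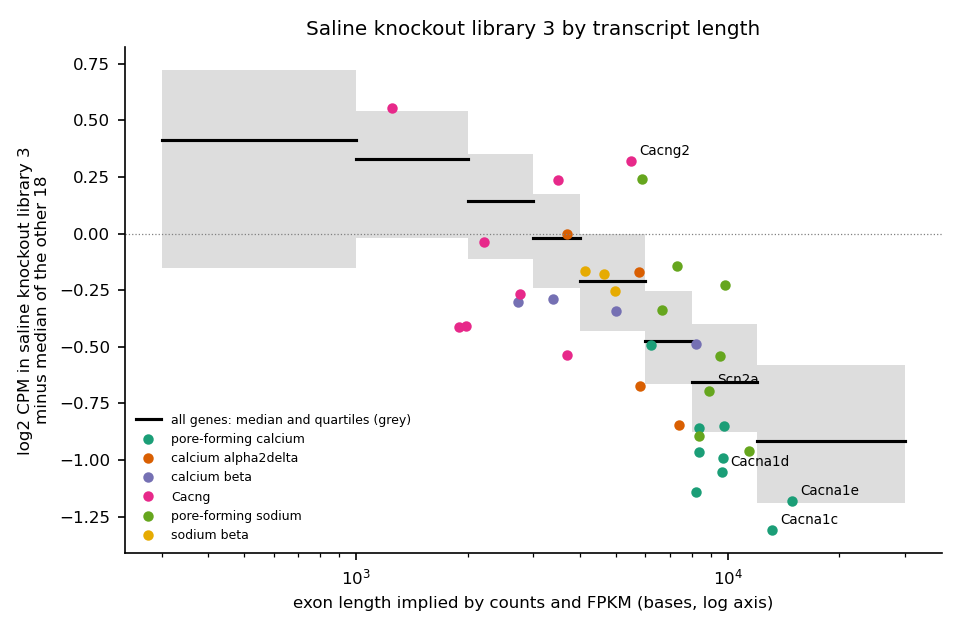
Log2 CPM in saline knockout library 3 minus the median of the other 18 libraries (vertical) against implied exon length (horizontal, log axis). Coloured points are 36 channel genes by class; black lines and grey bands are medians and quartiles of all genes per length range, falling from 0.41 to −0.92.

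**Figure D3:**
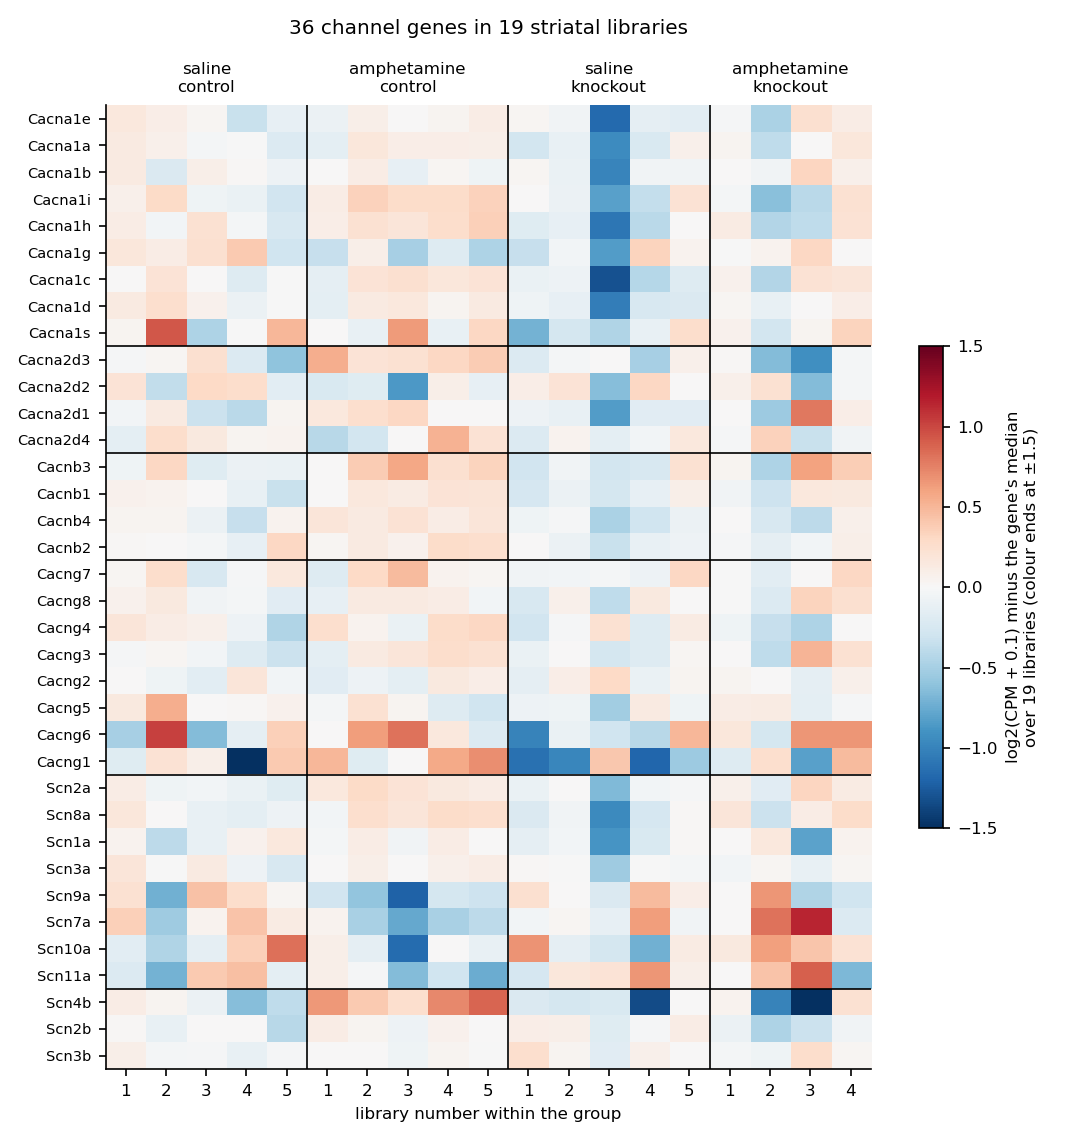
Log2(CPM + 0.1) of 36 channel genes minus each gene's median over 19 libraries (colour, ends at ±1.5), with libraries in columns by group. Saline knockout library 3 is low across the pore-forming genes, and Scn4b is low in saline knockout library 4 and amphetamine knockout libraries 2 and 3.

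In control mice, Scn4b, Cacna2d3 and Scn2a were higher after amphetamine in the authors' deposited table, the 3 members with an adjusted p under 0.05 there (795 of 18863 genes, 4.21%). In that table the log2 fold change was 0.76 ± 0.153 for Scn4b (adjusted p 0.000215), 0.24 ± 0.0679 for Scn2a (adjusted p 0.0179) and 0.42 ± 0.137 for Cacna2d3 (adjusted p 0.048). The edgeR quasi-likelihood test on all 19 libraries gave the same sizes and called none of the 38 members after Benjamini-Hochberg adjustment over 21513 genes (1 gene called, 0.00465%). DESeq2 (199 genes called, 1% of those it tested) and limma voom, each fitted to all 19 libraries, also called 0 members. The authors' table lists libraries of the 2 control groups only. Its calls and these may therefore rest on different sets of libraries. At an unadjusted p under 0.05 edgeR had 7 members higher and 4 lower, 11 of 38, where 11.8% of all genes passed (4.89% higher and 6.95% lower). A fit of only these 2 groups had 16 members, 12 of them higher (14.9% of all genes), and the replicate block 7 (10.5%).

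Among controls, Scn4b measured 599.5, 572, 521, 357 and 427 CPM after saline and 873, 727, 661, 912 and 1018 CPM after amphetamine, in the order of the libraries. Among knockout mice, Scn4b measured 477, 464, 473, 220.1 and 556 CPM after saline and 577, 278, 161 and 649 CPM after amphetamine. All 5 amphetamine controls lay above all 5 saline controls, 838 ± 144 against 495 ± 101 CPM (mean ± SD), a log2 fold change of 0.76 ± 0.302 (SE; edgeR adjusted p = 0.332). Scn4b is enriched in striatal projection neurons, whose 12 listed markers were all higher in this comparison too, with a median log2 fold change of 0.46 and 4 at an unadjusted p under 0.05. The 3 libraries with the least Scn4b are the 3 with the lowest sum of those markers. With the library score of that list as a covariate, a fit chosen after seeing the data, the Scn4b difference was 0.10 ± 0.0879. The list itself differs between the groups, so the covariate and the treatment cannot be told apart.

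For Cacna2d3, the 5 saline controls gave 157, 162, 187, 138 and 104 CPM and the 5 amphetamine controls 230.2, 182, 185, 197 and 206 CPM. The 5 saline knockout libraries gave 138, 154, 158, 112 and 168 CPM for Cacna2d3, and the 4 amphetamine knockout libraries 160.3, 101, 83.5 and 156 CPM. The controls overlapped in 1 library, saline control 3 lying above 2 of the amphetamine controls, and the means were 200.2 ± 19.4 after amphetamine and 149.5 ± 31.1 after saline. The log2 fold change was 0.42 ± 0.169 (edgeR adjusted p = 0.331), and 0.10 ± 0.0975 with the projection neuron covariate. Scn2a stood at 355, 314, 320.4, 308 and 290.3 CPM in the saline control libraries 1 to 5 and at 368, 404, 379.7, 365 and 358 CPM in the amphetamine control libraries 1 to 5. In the knockout mice it stood at 308, 330.0, 209, 320.5 and 326 CPM under saline (libraries 1 to 5) and at 347, 294, 413 and 360.2 CPM under amphetamine (libraries 1 to 4). The amphetamine controls, 375 ± 17.9, did not overlap the saline controls, 318 ± 23.9, with a log2 fold change of 0.24 ± 0.107 (edgeR adjusted p = 0.39), and 0.29 ± 0.118 with the covariate. Besides Scn4b and Scn2a, the beta gene Cacnb4 did not overlap between the control groups (208 to 274 CPM under saline, 284.5 to 306 under amphetamine). These 3 of 38 members were all higher, and 3.9% of all genes did not overlap.

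By class, all 4 calcium beta genes had a log2 fold change above 0, with a median of 0.21, and 3 of them were at an unadjusted p under 0.05. Of the 9 pore-forming calcium genes tested 6 were above 0 (median 0.06). Over all members 26 of 38 were above 0 with a median of 0.08, against 48.4% and −0.0074 over all genes. With the scores of 3 neighbouring-tissue lists (cortical, ependymal and pallidal-septal-hypothalamic) as covariates, 19 of 38 were above 0, the median was 0.0053, and 2 members, both lower, were at an unadjusted p under 0.05 (3.38% of all genes). With the projection neuron covariate that count was 2, both higher (6.3% of all genes). All 12 markers of cortical projection neurons had a log2 fold change above 0 here (median 0.69, 1 at an unadjusted p under 0.05), with a summed level of 269 to 826 CPM after saline and 563 to 1261 CPM after amphetamine. Leaving out 1 library changed the count of 11 at an unadjusted p under 0.05. It was 3 without saline control 3 (10.3% of all genes), saline control 4 (8.59%) or amphetamine control 3 (9.1%). Without amphetamine control 4 it was 5 (11.1%), and 6 without amphetamine control 2 (10%) or 5 (10.2%). Without saline control 5 it was 7 (12%), and it rose to 12 without saline control 2 (14.1%).

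Sodium channel genes known from sensory neurons had values of the opposite sign. Among controls, Scn9a measured 17.7, 9.07, 20.5, 18.1 and 15.4 CPM after saline and 12.3, 9.93, 6.42, 12.6 and 12.2 CPM after amphetamine, in the order of the libraries. Among knockout mice, Scn9a measured 17.8, 15.1, 12.9, 21.1 and 16.1 CPM after saline and 15.1, 24, 11 and 12.2 CPM after amphetamine. Among the controls the groups overlapped through saline control 2, and amphetamine control 3 was the lowest of all 19 libraries. The log2 fold change of Scn9a was −0.59 ± 0.231 (edgeR adjusted p = 0.316), that of Scn10a −0.41 ± 0.306 (edgeR adjusted p = 0.644) and that of Scn11a −0.37 ± 0.32 (edgeR adjusted p = 0.697). The sodium-sensing Scn7a differed by −0.53 ± 0.245 (edgeR adjusted p = 0.404).

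Markers of pallidal, septal and hypothalamic neurons, regions that border the striatum, were also lower after amphetamine in control mice. All 12 had a log2 fold change below 0 there (median −0.64, 8 at an unadjusted p under 0.05). In knockout mice 9 of the 12 were below 0 (51.1% of all genes were). There Scn7a (0.44), Scn10a (0.39) and Scn11a (0.07) were above 0. Scn9a was below, at −0.09 and, without saline knockout library 3, at −0.17. The summed level of the 12 markers in the controls ran from 232 to 519 CPM under saline and from 116 to 261 under amphetamine. Knockout mice had 361 to 581 CPM after saline and 231 to 438 CPM after amphetamine. Hcrt was at 0 in at least 1 library, and its highest level was 0.614 CPM. Lower values in control mice were not limited to this list. Of 10 ependymal markers 9 were below 0 (median −0.61, 7 at an unadjusted p under 0.05). Of 10 astrocyte markers 8 were (median −0.22, 6 at an unadjusted p under 0.05), while all 10 microglia markers were above 0. With the neighbouring-tissue covariates, the Scn9a difference was 0.01 ± 0.205 and that of Scn7a 0.08 ± 0.241. The covariate scores differ between the control groups (pallidal, septal and hypothalamic list 2.92 after saline and 1.80 after amphetamine), so covariates and treatment cannot be told apart. The part of neighbouring tissue in the result was not tested apart from this fit.

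**Figure D4:**
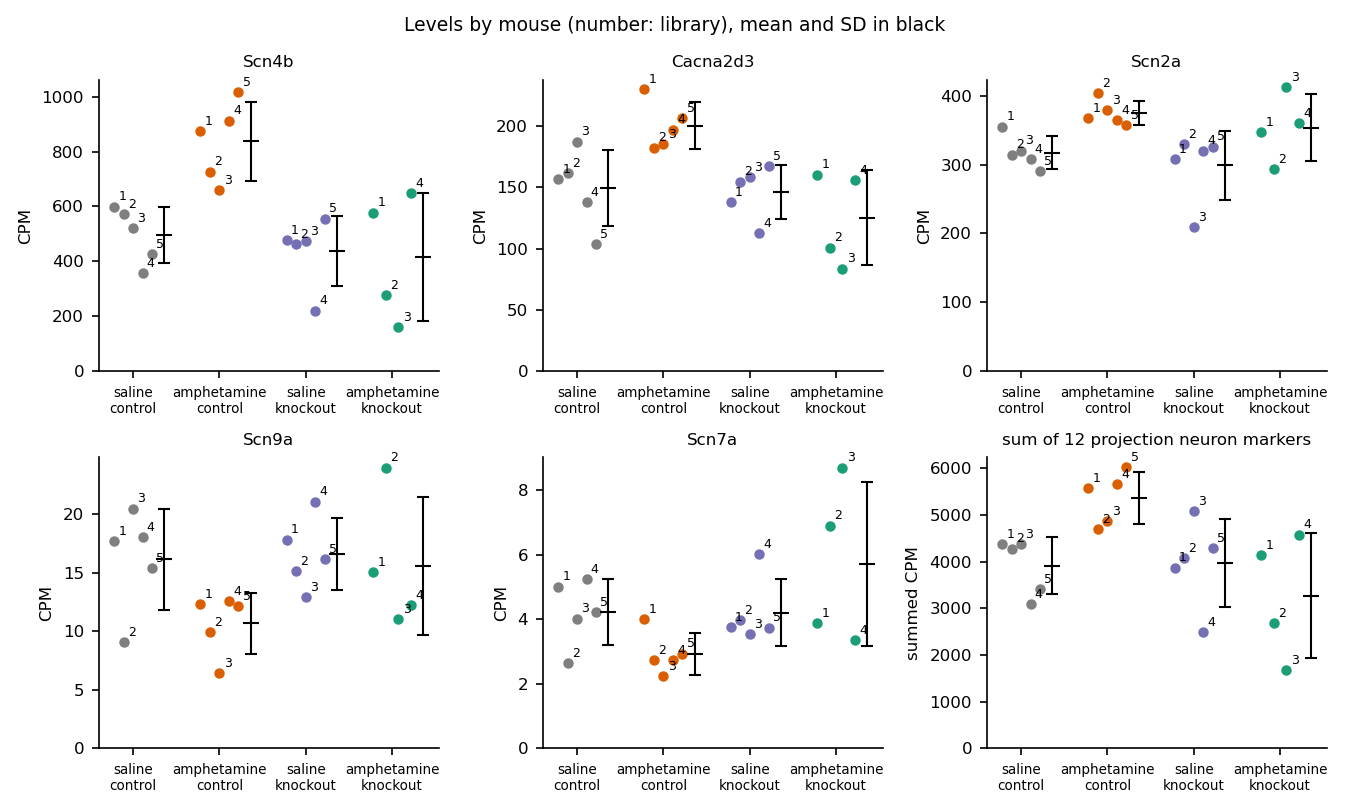
CPM of Scn4b, Cacna2d3, Scn2a, Scn9a and Scn7a and the summed CPM of 12 striatal projection neuron markers in each mouse, by group; numbers name the library, and black marks give the mean and SD (n = 5, 5, 5 and 4). The 5 amphetamine controls lie above the 5 saline controls for Scn4b (661 to 1018 against 357 to 599 CPM).

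In knockout mice, no member was called between amphetamine and saline by edgeR (1 gene of 21513, 0.00465%), by DESeq2 (96 genes, 0.45%) or by limma voom, and no member was listed under 0.05 in the authors' deposited table (0.665% of 19699 genes). With edgeR 5 members were higher and 1 lower at an unadjusted p under 0.05, 6 of 38 against 12.1% of all genes (6.09% higher and 6% lower), and no member's groups were free of overlap (5.07% of all genes were). A fit of only these 2 groups had 1 member under 0.05, with 0 higher (9.43% of all genes). The replicate block had 3 (12.5%). Scn4b, the gene with the largest difference in control mice, differed by −0.07 ± 0.319 here (edgeR adjusted p = 0.943). Scn2a differed by 0.24 ± 0.114 (edgeR adjusted p = 0.406), with amphetamine knockout library 2 inside the saline range, and by 0.14 without saline knockout library 3, the lowest of its group. The Scn4b difference was −0.04 without that library.

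For Scn2b, the 5 saline controls gave 408, 373, 403, 406 and 302 CPM and the 5 amphetamine controls 437, 415, 383, 422 and 404 CPM. The 5 saline knockout libraries gave 431, 428, 356, 398 and 435 CPM for Scn2b, and the 4 amphetamine knockout libraries 380.2, 293, 322 and 387 CPM. Scn2b, a beta subunit that links covalently to the pore, was lower after amphetamine in knockout mice, 346 ± 45.7 against 409.8 ± 33.3. Of the 4 amphetamine libraries, 2 lay below every saline library. These were libraries 2 and 3, which also had low sums of projection neuron markers. Libraries 1 and 4 lay within the saline range of 356 to 435 CPM. The log2 fold change was −0.25 ± 0.0985 (edgeR adjusted p = 0.346). Scn8a stood at 255, 227, 209.7, 206 and 215 CPM in the saline control libraries 1 to 5 and at 220.1, 271, 258, 275 and 270.0 CPM in the amphetamine control libraries 1 to 5. In the knockout mice it stood at 195, 218, 117, 190.2 and 229 CPM under saline (libraries 1 to 5) and at 256, 181, 244 and 275 CPM under amphetamine (libraries 1 to 4). Scn8a, the main channel of the mature axon initial segment, was at 239 ± 40.7 against 190.0 ± 43.7, with saline knockout library 3 the lowest of all. Its log2 fold change was 0.33 ± 0.146 (edgeR adjusted p = 0.379), and 0.20 without that library. Among controls, Cacna1d measured 52, 56.4, 49.6, 44.6 and 47 CPM after saline and 42.7, 52, 52.7, 48.6 and 52.2 CPM after amphetamine, in the order of the libraries. Among knockout mice, Cacna1d measured 45.4, 43.4, 23.1, 40.1 and 40.7 CPM after saline and 48.5, 44, 47.4 and 51 CPM after amphetamine. The L-type gene Cacna1d differed by 0.31 ± 0.134 (edgeR adjusted p = 0.377), and by 0.17 without saline knockout library 3.

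In this comparison 30 of 38 members had a log2 fold change above 0, with a median of 0.15, against 48.9% of all genes and −0.0059. Without saline knockout library 3 the median was 0.07, with 26 members above 0 (49.9% of all genes) and 3 at an unadjusted p under 0.05 (9.45%). The last count was also 3 without amphetamine knockout 1, amphetamine control 4 (11.2% of all genes) or amphetamine control 5 (11.4%). It was 2 without amphetamine knockout 4, 1 without amphetamine knockout 3 and 11 without amphetamine knockout 2. Counts without an amphetamine knockout library are given here without the share over all genes, so they are not read as a result about the members. Of the 9 pore-forming calcium genes tested 8 were above 0, with a median of 0.23 and, without saline knockout library 3, of 0.10 (8 above 0).

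**Figure D5:**
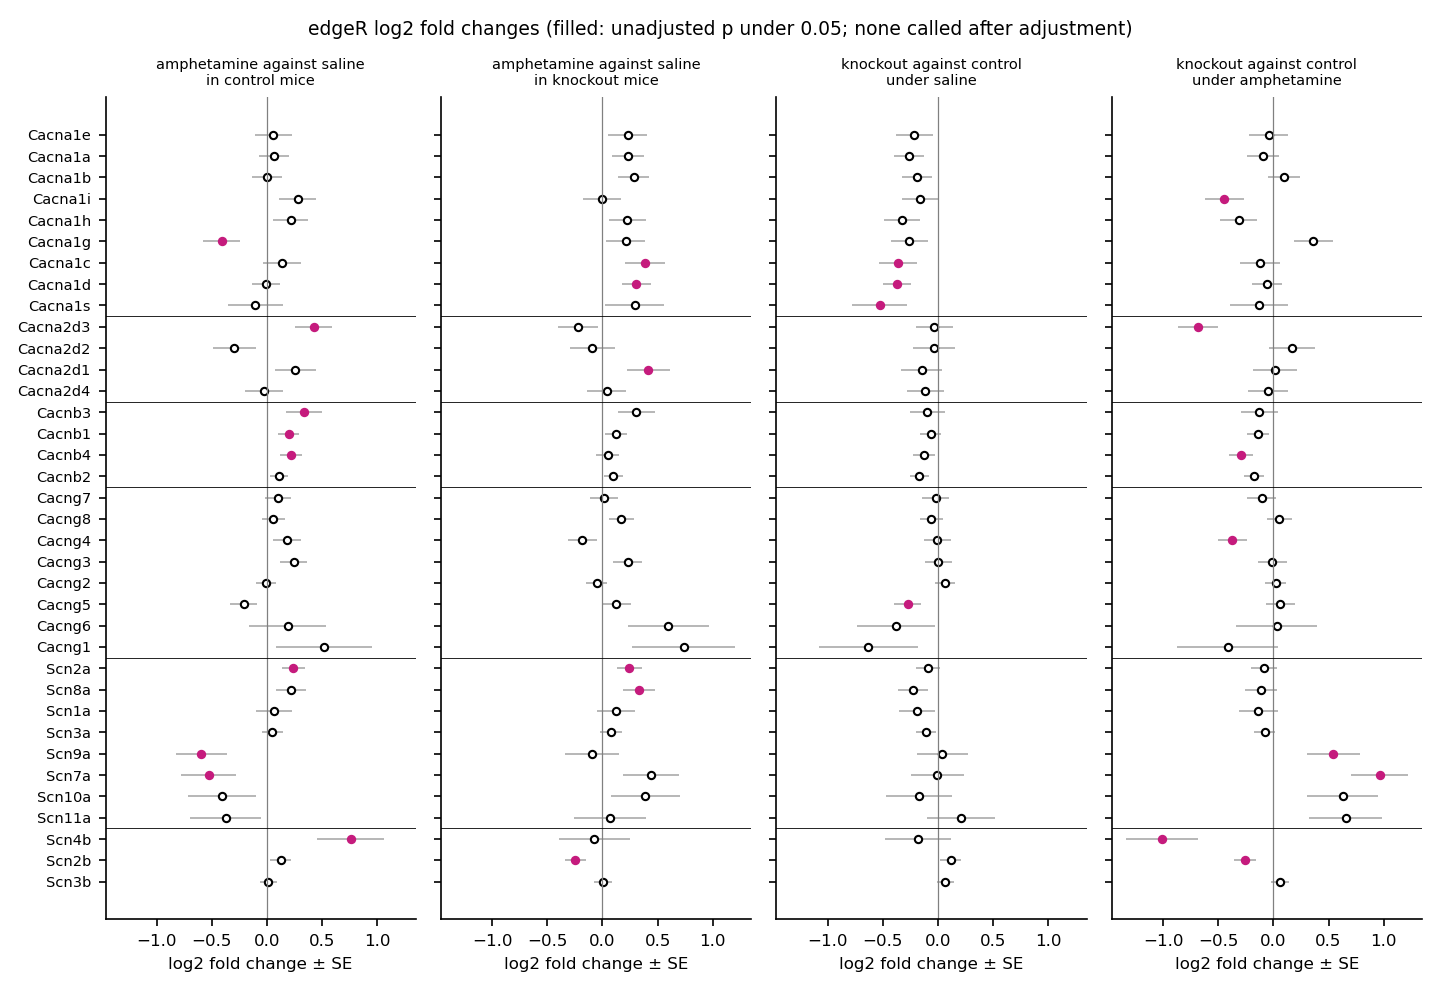
Log2 fold changes ± SE (edgeR, horizontal) of 36 channel genes in 4 comparisons, by class; filled points have an unadjusted p under 0.05, and none was called after adjustment. Scn4b lies at 0.76 in control mice and at −1.01 between knockout and control under amphetamine.

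Under saline, the knockout and control mice differed in no member by edgeR (0 of 21513 genes, 0%), DESeq2, limma voom or the authors' deposited table (1 of 22804 genes, 0.00439%). At an unadjusted p under 0.05 edgeR had 4 of 38 members, all lower, against 7.94% of all genes (3.79% higher and 4.15% lower), and no member's groups were free of overlap (0.911% of genes were). A fit of only these 2 groups had 1 member under 0.05 (4.01% of all genes). A log2 fold change above 0 was found for 6 of 38 members, with a median of −0.12, against 51% and 0.0046 over all genes. All 9 pore-forming calcium genes tested were below 0 (49% of all genes were), with a median of −0.26. Without saline knockout library 3, which was the lowest library for 8 of these 9 genes, all 9 were still below 0 and their median was −0.13. In that fit the members' median was −0.06. Of the 38 members, 10 were above 0 (48.2% of all genes) and 2 at an unadjusted p under 0.05 (4.56%). Members above 0 were also 10 without saline control 3 (50.1% of all genes). Those at an unadjusted p under 0.05 were 1 without saline control 2 (7.58% of all genes) and 7 without saline knockout 5. The last count is given without its share over all genes, so it is not read as a result about the members.

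Cacna1d, whose values are given with the amphetamine comparison in knockout mice, stood at 38.5 ± 8.9 CPM in saline knockout and 49.9 ± 4.57 in saline control mice. Saline knockout library 3 at 23.1 CPM was the lowest, and the other 4, from 40.1 to 45.4, overlapped the controls in 1 library. The log2 fold change was −0.37 ± 0.127 (edgeR adjusted p = 0.614), and −0.24 without library 3. Cacna1c went from −0.36 to −0.20 and Cacna1e from −0.22 to −0.06 in the same way. For Cacng5, the 5 saline controls gave 36.4, 47.9, 32.9, 33.3 and 34.3 CPM and the 5 amphetamine controls 32.2, 38.5, 33.8, 28.8 and 26.7 CPM. The 5 saline knockout libraries gave 31.3, 31.5, 22.8, 36 and 31.4 CPM for Cacng5, and the 4 amphetamine knockout libraries 35.5, 35.9, 29.7 and 32.4 CPM. Cacng5, an AMPA receptor auxiliary gene, was highest in saline control 2 and lowest in saline knockout 3, and differed by −0.27 ± 0.122 (edgeR adjusted p = 0.614), or −0.16 without saline control 2. Cacna1s stood at 1.56, 2.99, 1.07, 1.51 and 2.17 CPM in the saline control libraries 1 to 5 and at 1.51, 1.39, 2.42, 1.4 and 1.9 CPM in the amphetamine control libraries 1 to 5. In the knockout mice it stood at 0.886, 1.25, 1.08, 1.39 and 1.84 CPM under saline (libraries 1 to 5) and at 1.59, 1.23, 1.56 and 1.93 CPM under amphetamine (libraries 1 to 4). Cacna1s, the skeletal muscle L-type gene, was at 71 to 214 counts per library and differed by −0.53 ± 0.25 (edgeR adjusted p = 0.614), or −0.29 without saline control 2, its highest library.

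Under amphetamine, Scn4b and Cacna2d3 were lower and Scn7a higher in knockout than in control mice, without a call by edgeR (0 of 21513 genes, 0%) or limma voom. DESeq2 called Cacna2d3 and Scn7a, each at an adjusted p of 0.0497, among 103 genes (0.453%). Over the other settings tried with all 19 libraries and no tissue covariate, the adjusted p ran from 0.169 to 0.358 for Cacna2d3 and from 0.17 to 0.358 for Scn7a. At an unadjusted p under 0.05 edgeR had 3 members higher and 6 lower, 9 of 38, against 12.8% of all genes (7.44% higher and 5.34% lower). A fit of only these 2 groups had 13 members, 5 of them higher (17.8% of all genes). Groups did not overlap for Scn10a (higher) and for Cacna2d3, Cacnb4 and Scn4b (lower), 4 of 38 members, against 6.79% of all genes.

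Scn4b was at 416 ± 234 CPM in amphetamine knockout mice, and all 4 libraries lay below the 5 amphetamine controls. The log2 fold change was −1.01 ± 0.326 (edgeR adjusted p = 0.238). It was −0.53 without amphetamine knockout 2 and 3, saline knockout 3, saline control 5 and amphetamine control 3, and −0.04 ± 0.108 with the projection neuron covariate. Cacna2d3 was at 125 ± 38.7 CPM, with libraries 2 and 3 the lowest, and differed by −0.68 ± 0.181 (edgeR adjusted p = 0.22), by −0.37 without those 5 libraries and by −0.15 ± 0.122 with the covariate. All 12 projection neuron markers were lower in this comparison (median −0.79, 11 at an unadjusted p under 0.05).

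Among controls, Scn7a measured 5.01, 2.64, 4.02, 5.26 and 4.22 CPM after saline and 4.02, 2.74, 2.23, 2.74 and 2.93 CPM after amphetamine, in the order of the libraries. Among knockout mice, Scn7a measured 3.76, 3.97, 3.55, 6.03 and 3.74 CPM after saline and 3.88, 6.91, 8.71 and 3.36 CPM after amphetamine. Amphetamine knockout libraries 2 and 3 were the highest of all, while libraries 1 and 4 lay within the range of the amphetamine controls. Scn7a encodes an atypical subunit that senses sodium and is not opened by voltage. Its log2 fold change was 0.96 ± 0.256 (edgeR adjusted p = 0.22), 0.22 without the 5 libraries and 0.23 with the neighbouring-tissue covariates. Scn9a differed by 0.54 ± 0.243 (edgeR adjusted p = 0.364), and by 0.21 without the 5 libraries. All 12 pallidal, septal and hypothalamic markers were higher here (median 0.99, 6 at an unadjusted p under 0.05), as were all 8 choroid plexus markers (median 1.42). The choroid plexus sum was high in amphetamine knockout library 2 alone, at 683 CPM. It was 44.3, 27.2 and 41.3 CPM in libraries 1, 3 and 4. The pallidal, septal and hypothalamic sum was 299.5, 437.9, 297.4 and 231 CPM in amphetamine knockout libraries 1 to 4. Library 3 held the most Scn7a. The part of either tissue in the Scn7a values was not tested.

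Over all members 14 of 38 were above 0 with a median of −0.08, against 51% and 0.0049 over all genes (24 were below 0, against 49%). The median was −0.13 without amphetamine control 1, −0.05 without amphetamine control 3 and −0.0012 without amphetamine knockout 2. Members at an unadjusted p under 0.05 numbered 2 without the 5 libraries and 0 with the projection neuron covariate, where 4.72% and 1.59% of all genes passed.

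Whether the response to amphetamine differed by genotype was tested as an interaction, and no member was called by edgeR (0 of 21513 genes, 0%), DESeq2 (14 genes, 0.0731%) or limma voom. At an unadjusted p under 0.05 edgeR had 4 of 38 members, 2 higher and 2 lower, against 9.25% of all genes (5.2% higher and 4.05% lower). The count was 7 without saline control 2 (11% of all genes) or amphetamine knockout 1. It was 8 without saline knockout 1, saline knockout 4 or amphetamine knockout 4. Counts without a knockout library are given here without the share over all genes, so they are not read as a result about the members. The smallest p-values were those of Scn7a (0.97 ± 0.353 on the log2 scale), Scn2b (−0.37 ± 0.135) and Cacna2d3 (−0.65 ± 0.246), each with an edgeR adjusted p of 0.519. For Scn4b the difference was −0.83 ± 0.44 (edgeR adjusted p = 0.557), so the responses of 0.76 in control and −0.07 in knockout mice were not shown to differ. All 4 calcium beta genes had a difference below 0 (median −0.05, and −0.08 without saline knockout library 3). Over the members 24 of 38 were above 0 (50.9% of all genes) and 14 below (49.1%), with a median of 0.09. That median was 0.06 without saline control 2, 0.05 without amphetamine control 1, 0.14 without amphetamine control 4, 0.03 without saline knockout 3 and 0.02 without amphetamine knockout 4.

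Genes that work with these channels were read from 5 lists, and edgeR called none of their tested genes in any comparison. In control mice 48.4% of all genes were above 0 after amphetamine, and 4.89% were higher and 6.95% lower at an unadjusted p under 0.05. Of 22 calcium channel partners (release-site scaffolds, small G proteins, calmodulins and calcium-dependent enzymes) 13 were above 0 in control mice after amphetamine (median 0.16), with 5 higher and 3 lower at an unadjusted p under 0.05. Ppp3ca, the catalytic subunit of calcineurin, differed by 0.49 ± 0.135 there (edgeR adjusted p = 0.183) and by −0.52 ± 0.144 between knockout and control under amphetamine (edgeR adjusted p = 0.224). Of 22 genes of calcium stores and extrusion, 15 were above 0 in control mice after amphetamine (median 0.08), with 3 higher and 0 lower at an unadjusted p under 0.05. Atp2b1, a plasma membrane calcium pump, differed by 0.53 ± 0.136 (edgeR adjusted p = 0.173) there and by −0.64 ± 0.145 (edgeR adjusted p = 0.220) between knockout and control under amphetamine. These comparisons share the amphetamine control mice. Saline knockout library 4 and amphetamine knockout libraries 2 and 3 had the lowest sums of projection neuron markers. Ppp3ca stood at 1037, 1070 and 1203 CPM in them, and Atp2b1 at 488, 475 and 509 CPM. Saline control library 4 was similar, with 1048 CPM of Ppp3ca and 496 CPM of Atp2b1. The part of projection neuron content in the differences of these genes was not tested.

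Under saline, 2 of 22 store and extrusion genes were above 0 in knockout against control (median −0.17), against 51% of all genes, with 1 higher and 2 lower at an unadjusted p under 0.05 (3.79% and 4.15% of all genes). Without saline knockout library 3, 3 of 22 were above 0 with a median of −0.07, against 48.2% of all genes. The lowest was Itpr3, an inositol trisphosphate receptor, at −0.63 ± 0.183 (edgeR adjusted p = 0.614) and −0.48 without that library. The second smallest p belonged to Orai1, a store-operated channel, at 0.30 ± 0.1 (edgeR adjusted p = 0.614) and 0.21 without it. Of 14 sodium channel partners (ankyrins, spectrins, adhesion proteins and intracellular FGFs) 3 were above 0 under saline, with a median of −0.11 and, without library 3, of −0.04 (3 above 0). After amphetamine 10 of the 14 were above 0 in control mice (median 0.04) and 12 in knockout mice (median 0.07, against 48.9% of all genes above 0), the latter 8 with a median of 0.0047 without library 3. Of the 4 genes tested of the sodium leak channel complex, which includes the pore Nalcn, 0 were above 0 under saline (median −0.09), and 2 without library 3 (median 0.00054). Of 12 AMPA receptor subunits and other auxiliary proteins, 7 were above 0 in control mice after amphetamine (median 0.12) and 5 between knockout and control under amphetamine (median −0.14, against 51% of all genes above 0).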

How the data were processed

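Striatal RNA of 19 mice was sequenced. The authors' deposited counts are whole reads per gene, and the submitters' processing notes list Trim Galore 0.5.0, STAR 2.6.0c, HTSeq 0.6.1p2, DESeq2 1.26.0s and GRCm39. The annotation release and strand setting were not given in the sources used here. The authors' 3 deposited tables give log2 fold changes with SE and p-values from DESeq2 per the file headers, and FPKM, counts scaled by length and library total by the authors. In R 4.3.3, edgeR 4.0.16 (TMM, filterByExpr, robust quasi-likelihood fit of 4 group means over 19 libraries) tested 5 contrasts, adjusted by Benjamini-Hochberg over 21513 genes and called at 0.05. Fold change SEs are the fold change over the root of F. Alternatives were DESeq2 1.42.0, limma 3.58.1 voom, RLE scaling, no filter, 2-group fits, a replicate block, tissue covariates and leaving out libraries. The projection neuron covariate was chosen after seeing the data. The edgeR step was tested on simulated data. Members, lists and libraries that stand apart were chosen with earlier results of these data known. Members named in full were those under 0.05 in an authors' table or with the 3 smallest p in a contrast (11 genes), and each class's highest gene by FPKM. The values of 2 members are not reported here, and counts over all members include them. Levels are CPM after TMM scaling, with the SD between mice. Each label names a separate mouse, and 1 amphetamine knockout library, which the title of an authors' table appears to give as left out, was not analysed here. Library totals were 57003408 counts or more, and each tested member had at least 21 counts in every library, except Cacng1 (from 7).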

Additional observations from a re-analysis of the deposited data

Results flagged for a closer look

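Each of 15 channel genes was checked in each of the 4 groups for a mouse far from the rest of its group, 60 checks in all. Chance gives such a flag in about 1 group of 20, and 8 were found. Several genes were flagged in the same library, so the checks are not independent. No share of flags over all genes is given, so the 8 are not read as an excess of the channel genes. In saline knockout library 3, the library with low long transcripts, Cacna1d stood at 23.07 CPM (next lowest 40.09), Cacna1e at 127.8 (next 256) and Scn2a at 209.2 (next 308). In saline knockout library 4, which had the second lowest sum of striatal projection neuron markers, Scn4b was lowest at 220.1 CPM (next 463.5) and Scn7a highest at 6.03 CPM (next 3.972). Saline control library 2 was highest for Cacnb3 at 157.5 CPM (next 120.7) and for Cacng5 at 47.94 CPM (next 36.41). Saline knockout library 5 was highest for Cacng7 at 179.7 CPM (next 142.1). The part of depth, tissue or transcript length in these values was not tested.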

How the results depend on the processing

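The members' median log2 fold change moved by less than the spread between mice (0.1146) under every alternative. The medians of amphetamine in control mice (0.08), knockout under amphetamine (−0.08) and the difference (0.09) are themselves smaller than that spread. For them this limit could not show a fall to 0. The first was 0.0053 with neighbouring-tissue covariates, and the second −0.0012 without amphetamine knockout 2. The number of members called stayed at 0 in each contrast and setting, except that DESeq2 called 2 (Cacna2d3 and Scn7a) between knockout and control under amphetamine. Over all genes, DESeq2 called 199, 96, 0, 103 and 14 genes in the 5 contrasts (amphetamine in control mice, amphetamine in knockout mice, knockout under saline, knockout under amphetamine, difference), against 1, 1, 0, 0 and 0 by edgeR. Fits of the 2 groups compared called 75, 0, 0 and 0 and were not run for the difference. Without the 5 libraries that stand apart 39, 2, 0, 1 and 0 were called, with limma voom 1, 3, 0, 0 and 0, and with neighbouring-tissue covariates or the projection neuron covariate 0 in each. Leaving out 1 library gave 0 to 6 genes in control mice, the most without amphetamine knockout 2, and 0 to 29 in knockout mice, the most without saline control 5, and 0 in the other 3 contrasts. Among the 17 pairs of a named member and the comparison that named it, 1 sign reversed, that of Scn9a in control mice, −0.59 to 0.012 with the neighbouring-tissue covariates. Members outside these pairs also changed sign, among them Scn7a in control mice (−0.53 to 0.08) with the same covariates. The cause of these changes was not tested. The replicate block called 1, 5, 0, 0 and 0 genes and 0 members. Among same-numbered pairs, 1 of 27 had a correlation of deviations over 0.1 (median −0.03, range −0.35 to 0.15). The numbers are those of the sample titles. The authors' column names number the knockout mice otherwise, so neither this check nor the replicate block can exclude a pairing. The lowest members (Cacna1f, Cacng1, Scn10a, Scn11a) are limited by depth, with 1 to 113 counts per library.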
